A study of Rattus norvegicus with 16 samples.

Results

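The cytochrome P450 family was taken as every probe set whose platform annotation gives a single gene symbol that starts with Cyp followed directly by a digit. A probe set is the unit the array measures, several short probes read together for a transcript or for close copies of it. The rule found 84 probe sets for 49 genes among the 8740 probe sets that are not controls, and 46 of them, for 31 genes, were bright enough to be tested. Each of 8 rats gave both kidneys, and each kidney was hybridised to 1 single-colour array, 16 arrays in all. The right kidney had been given ACTH (adrenocorticotropic hormone, the pituitary hormone that drives the adrenal cortex) in rats 1 and 5, DEX in rats 3 and 7, and saline in rats 2, 4, 6 and 8. The untreated left kidney of the same animal served as its control in all 8 rats. DEX is an abbreviation that the labels leave unexpanded. The titles name 4 saline rats although the series text speaks of a pair of rats for each treatment, and the titles were followed. Genotype, strain, sex, age, dose, route and duration are not given in the labels, and whether a hormone given to the right kidney also reached the left one is not stated.

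Cytochromes P450 are haem enzymes that insert an oxygen atom into their substrates, using electrons passed on by P450 reductase in the endoplasmic reticulum or by ferredoxin in mitochondria. Families 1 to 4 act mostly on drugs, fatty acids and arachidonic acid, and several of their rat members differ between the sexes in liver. The other families make or break down steroids, bile acids, vitamin D and retinoic acid. In the kidney, arachidonate epoxygenases of the Cyp2c group and fatty acid omega-hydroxylases of the Cyp4a group are known from the proximal tubule, where their products affect sodium transport and vascular tone.

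The deposited signals spanned 5.18 to 12664, with array medians of 76.0 to 82.1. The arrays formed a pair of clusters that no label names, rats 1 to 4 and rats 5 to 8, with both kidneys of a rat always in the same cluster and 1 ACTH, 1 DEX and 2 saline rats in each. Of 10 proximal tubule marker genes 9 were on the array, and all 9 were bright enough to be tested, as the kidney label calls for. Precision is set by how many arrays there are and not by a depth. Each rat counts once, by its right minus left change. The p-values rest on how far these changes spread between rats given the same treatment. The fit also borrows from the spread of other probe sets. In whole kidney RNA, fewer cells of a type and less RNA per cell cannot be told apart.

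The signal of the family in kidney differed widely between probe sets. Of the 84, 11 probe sets for 7 genes had a mean over 500, where 953 of all probe sets lay, 18 for 10 genes had a mean of 100 to 500, and 17 tested ones for 16 genes had 100 or less. The 7 genes over 500 were Cyp2c23, Cyp2d2, Cyp2d4, Cyp2e1, Cyp4a8, Cyp4f1 and Cyp4f6. The other 38 probe sets fell among the dimmest 40% of the array, with means of 7.97 to 60.7, and were not tested. For 18 genes no probe set annotated to the gene alone was tested. Among these were the male-typical Cyp2c13 and the female-typical Cyp2c12 of rat liver, Cyp2c7, Cyp2c22, Cyp2j3, Cyp1a2, Cyp3a2, Cyp3a9, Cyp3a18, Cyp4f4, Cyp4f17, Cyp7b1, Cyp19a1 and Cyp11b2. Binding differs between probe sets, so these signals do not rank the genes by their RNA. Probe sets of 1 gene also differed, as with Cyp2c23, whose 3 probe sets had means of 2855, 1228 and 39.7. A further 13 probe sets carried several symbols with at least 1 Cyp among them, so they were counted but given no gene name, and of the 9 that were tested 0 were called.

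**Figure D1:**
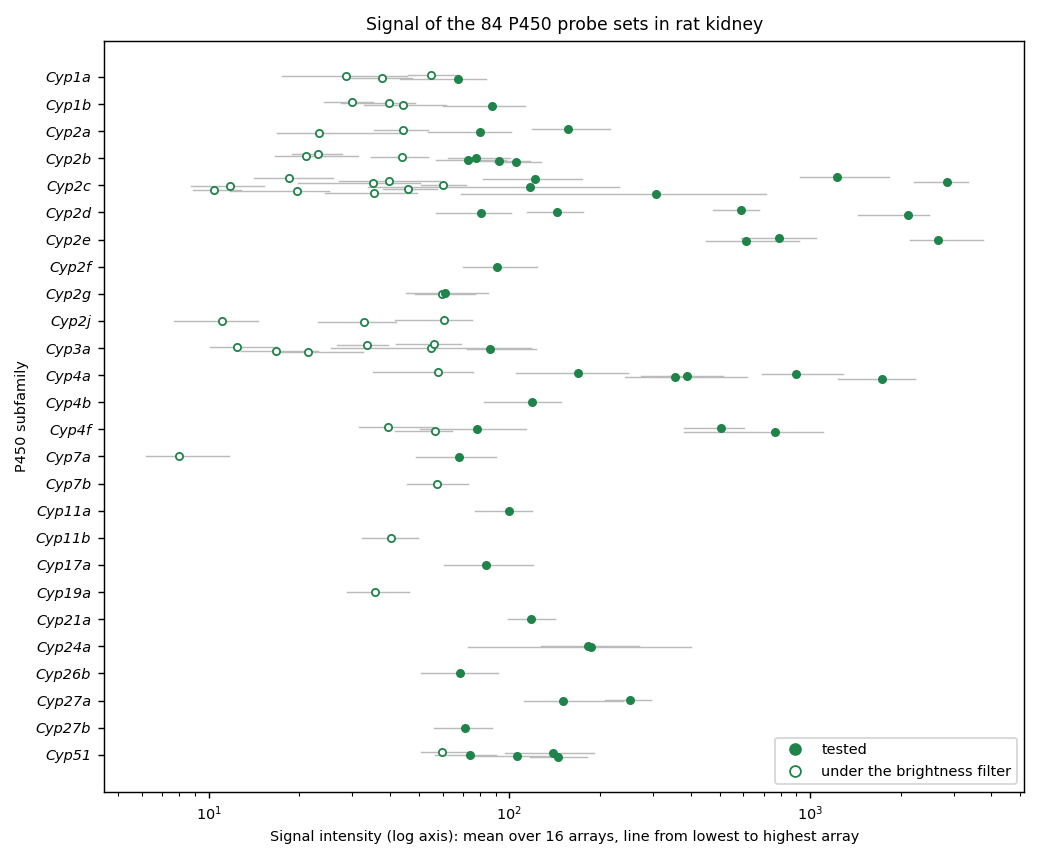
Mean signal of each of the 84 P450 probe sets over 16 arrays (points, log axis), by subfamily, with a line from the lowest to the highest array. Filled points are the 46 tested probe sets, and open points the 38 under the brightness filter. The 11 probe sets over 500 belong to Cyp2c, Cyp2d, Cyp2e, Cyp4a and Cyp4f.

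No P450 was called with either hormone against saline, and Cyp2c11 was lower after ACTH than after DEX on 1 of its probe sets, the one call in the family between the hormones. An effect here is how far the right kidney differed from the left in the hormone rats, less the same difference in the saline rats, on a log2(signal + 16) scale, and is given with its standard error. A probe set is called where limma's Benjamini-Hochberg adjusted p over all 5244 tested probe sets is under 0.05. For the ACTH effect, 0 of 46 P450 probe sets were called, where the array as a whole had 26 (0.496%), 14 higher and 12 lower. At an unadjusted p under 0.05 there were 2, both for Cyp2c11, against 9.44% of all tested probe sets. For the DEX effect, 0 of 46 were called and 0% of all, and 1 passed the unadjusted threshold, against 2.94% of all. For neither hormone did the P450s hold a larger share of calls than the array. In the test of ACTH against DEX, 1 of 46 was called, lower with ACTH, where 30 of all were called (0.572%), and 2 passed the unadjusted threshold, against 12.2% of all. The median effect of the 46 was 0.01 for ACTH, where that of all tested probe sets was −0.0003, and 0.01 for DEX, where that of all was −0.003. In direction the family was evenly split, with 25 of 46 above 0 for ACTH and 24 for DEX.

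A second view is the order of the 8 rats. The right minus left changes of both ACTH rats lay below those of all 4 saline rats for 5 of 46 P450 probe sets, where 7.84% of all probe sets did so, and above them for 1, where 7.82% did so. Both DEX rats lay below all saline rats for 3 of 46 (6.33% of all) and above them for 4 (6.08% of all). The 5 below for ACTH were those of Cyp2c11 (2 probe sets), Cyp4b1, Cyp2a3 and Cyp4f5, and the 1 above was Cyp4a8. For DEX, those below were Cyp2a3, Cyp4f5 and Cyp4f6, and those above were Cyp4a8 (2 probe sets), Cyp4f1 and Cyp51.

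**Figure D2:**
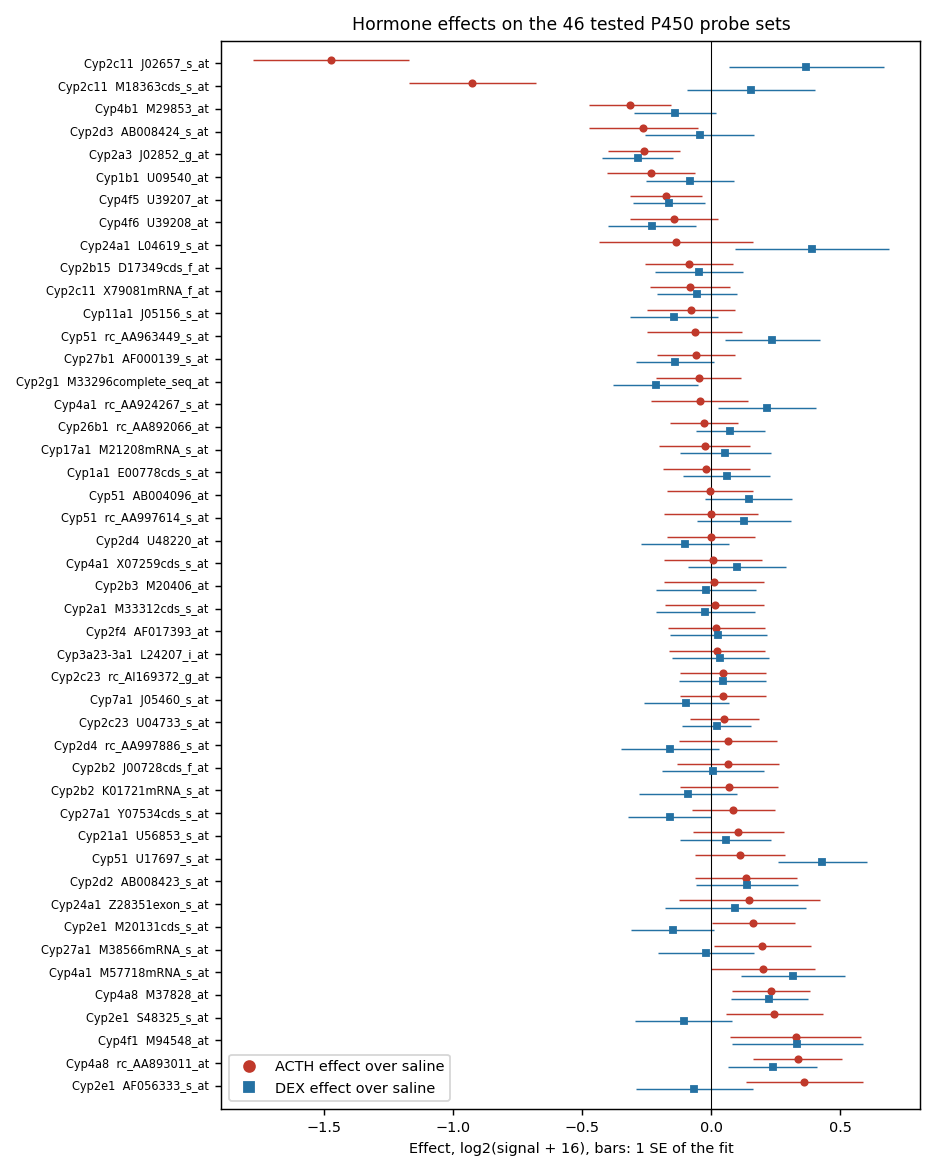
ACTH effect (circles) and DEX effect (squares) over saline for the 46 tested P450 probe sets, on the log2(signal + 16) scale with bars of 1 standard error, ordered by the ACTH effect. The first 2 Cyp2c11 probe sets lie at −1.47 and −0.93 for ACTH, and every other effect of either hormone lies between −0.31 and 0.43.

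Cyp2c11, a steroid hydroxylase and arachidonate epoxygenase whose liver form is male-typical and under growth hormone control in rats, was the member that differed between the hormones. Its probe set J02657_s_at had 69.1 and 71.6 in the ACTH right kidneys, 143 and 228 in the DEX right kidneys, and 428, 269.9, 462 and 113 in the saline right kidneys. The left kidneys had 438 and 297 in the ACTH rats, 152 and 326 in the DEX rats, and 713, 338, 528 and 324 in the saline rats. The ACTH right kidneys were the lowest of all 16 kidneys, whereas the left kidneys of the same rats lay among the others. The right minus left change was −2.42 and −1.84 in the ACTH rats, −0.08 and −0.49 in the DEX rats, and −0.71, −0.31, −0.19 and −1.40 in the saline rats. The right kidney was lower in all 8 rats, the saline rats included, and rat 8 among these was nearest to the ACTH rats. The ACTH effect minus the DEX effect was −1.84 ± 0.35 (adjusted p = 0.0408). The ACTH effect alone was −1.47 ± 0.30 and missed the threshold (adjusted p = 0.0592), and the DEX effect was 0.37 ± 0.30 (adjusted p = 0.999). Within rats 1 to 4 the difference between the hormones was −2.34 and within rats 5 to 8 it was −1.35, with 1 rat per hormone in each and no test.

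Both other Cyp2c11 probe sets bear on the same gene, in different ways. M18363cds_s_at had 33.9 and 47.2 in the ACTH right kidneys, 45.2 and 112 in the DEX right kidneys, and 133, 80.5, 216 and 70.1 in the saline right kidneys, with left kidneys at 107 and 145 in the ACTH rats, 41.6 and 176 in the DEX rats, and 206, 82.5, 231 and 145 in the saline rats. Its ACTH effect was −0.93 ± 0.25 (adjusted p = 0.163) and its ACTH minus DEX difference −1.08 ± 0.29 (adjusted p = 0.134). It had the order of J02657_s_at, with both ACTH rats below all saline rats, and did not pass the threshold. X79081mRNA_f_at, whose suffix marks a probe set that can bind several members of a sequence family, had 90.8 and 99.1 in the ACTH right kidneys, 86.0 and 113 in the DEX right kidneys, and 116, 81.9, 167 and 107 in the saline right kidneys. Its ACTH effect was −0.08 ± 0.16 and its ACTH minus DEX difference −0.03 ± 0.18, neither called, and the right kidney was lower than the left in all 8 rats. Rat Cyp2c genes are close copies, so the part of each signal that came from a relative is not known.

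**Figure D3:**
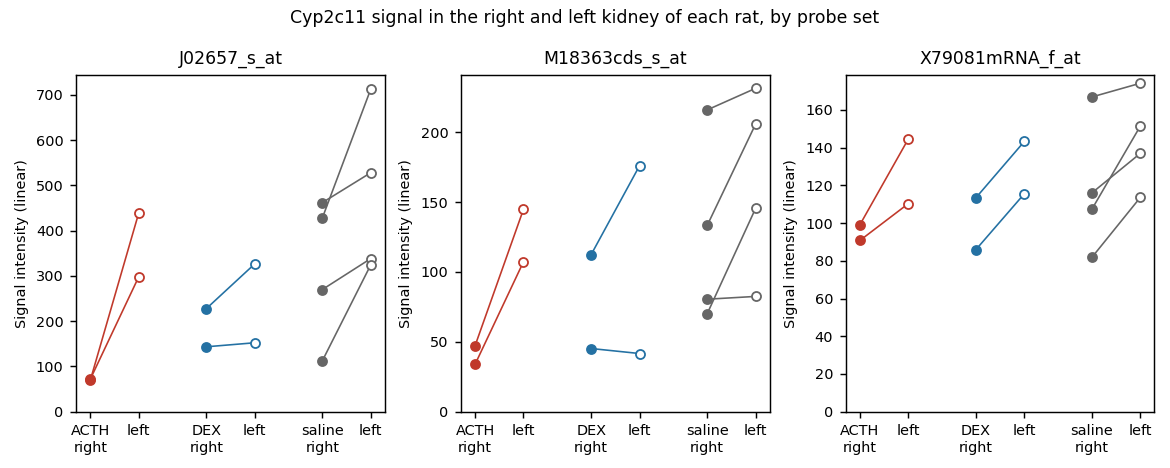
Cyp2c11 signal (linear axis from 0) in the right kidney (filled) and left kidney (open) of each rat, joined by a line, for the 3 probe sets of the gene. For J02657_s_at both ACTH right kidneys lie near 70, at 69.1 and 71.6, below every other kidney, and the lines of all 8 rats run upward to the left kidney.

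The call for Cyp2c11 depended on single rats and on how other tissue was handled. Across 18 other settings the ACTH minus DEX difference stayed below 0, from −2.13 to −0.55, and was called in 8. It was not called without rat 1, 2, 3, 4 or 7, with values of −1.55, −1.84, −1.64, −1.84 and −2.05. The ACTH effect was called in 3 of the 18, namely with the dimmest 60% left out (adjusted p = 0.0476), without rat 5 (adjusted p = 0.0300) and without rat 8 (adjusted p = 0.0148). Without the replicate block for rat the difference was −1.84 with a standard error of 0.78, and with right kidneys only it was −1.19 ± 0.56, and neither was called.

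Markers of fat, proximal tubule, liver and erythrocytes differed in summed signal between the ACTH right kidneys and the other right kidneys. These sums leave out the pairing with the left kidney. Of 9 fat genes 8 were on the array and 7 were tested, and none was at 0. Their summed signal was 1838 to 12056 in the ACTH right kidneys, 1107 to 1494 in the DEX right kidneys, 1128 to 1812 in the saline right kidneys and 1064 to 3959 in the left kidneys. With the mean of these fat genes as a covariate, the ACTH minus DEX difference of Cyp2c11 was −0.55 ± 0.50 (adjusted p = 0.684). With it no probe set of the array was called in this comparison, where 30 were without it, so the loss is not particular to Cyp2c11. The fat genes had a median ACTH minus DEX effect of 2.48, so fat signal and hormone cannot be told apart here. The summed signal of the 9 proximal tubule genes was 15030 to 17847 in the ACTH right kidneys, 20546 to 20960 in the DEX right kidneys, 18812 to 21424 in the saline right kidneys and 17883 to 20281 in the left kidneys. Of these 9, Kap, a proximal tubule protein under androgen control in mouse, was called lower with ACTH (−0.78 ± 0.12, adjusted p = 0.018). It was also called lower for ACTH minus DEX (−0.99 ± 0.14, adjusted p = 0.0161). The list was split in direction, with 4 of 9 genes above 0 for ACTH and a median effect of −0.14, and the sum weighs bright genes such as Kap and Slc34a1 most. The ACTH right kidneys were thus the lowest in summed tubule signal among right kidneys and the highest in summed fat signal. They were also the highest right kidneys in summed signal of the 5 liver genes that were tested, of 9 listed. The sums were 419 to 421 in the ACTH, 341 to 349 in the DEX and 321 to 365 in the saline right kidneys. Left kidneys had 304 to 368. These 5 genes were dim, with means of 61.8 to 78.0, where the lowest mean of any tested probe set was 60.5. For the 2 erythrocyte genes on the array the sums were 4774 to 5027 in the ACTH right kidneys, 2916 to 3118 in the DEX right kidneys, 2492 to 4094 in the saline right kidneys and 1635 to 5661 in the left kidneys. No liver or erythrocyte gene was called in the 3 hormone comparisons. Of the 7 tested fat genes, 0 were called for ACTH or for DEX over saline. For ACTH minus DEX, where Cyp2c11 was called, 3 of the 7 were called, all higher, against 0.572% of all probe sets. These were Fabp4, Cfd and Ucp1 (limma's adjusted p of 0.0476, 0.0489 and 0.0351). The part of tubule, liver or blood content in the Cyp2c11 result was not tested.

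Promoters of Cyp2c11 and of Cyp2c23, the other Cyp2c gene with a tested probe set, are shown to set the gene that was called beside a relative that was not. Both are the 250 bases before the transcript start that RefSeq's rat table uses (GRCr8), Cyp2c11 at chr1:246174966-246175215 on the plus strand and Cyp2c23 at chr1:252863068-252863317 on the minus strand. The Cyp2c23 window holds 14 bases of the gene's annotated span, which reaches beyond that start, and the Cyp2c11 window holds 0. Capitals mark a match to TGTTCT on either strand, which is the half-site bound by glucocorticoid and androgen receptors, or to TATAAA on either strand.
Cyp2c11: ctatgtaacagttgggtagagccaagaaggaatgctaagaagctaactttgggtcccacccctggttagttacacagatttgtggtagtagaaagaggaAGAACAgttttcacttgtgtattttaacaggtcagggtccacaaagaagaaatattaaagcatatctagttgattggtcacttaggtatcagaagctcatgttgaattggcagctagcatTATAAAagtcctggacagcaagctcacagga
Cyp2c23: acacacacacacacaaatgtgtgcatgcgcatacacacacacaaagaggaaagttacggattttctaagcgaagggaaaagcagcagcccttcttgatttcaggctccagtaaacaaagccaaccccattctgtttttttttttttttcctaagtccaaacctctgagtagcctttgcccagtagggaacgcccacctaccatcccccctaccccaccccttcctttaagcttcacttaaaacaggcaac

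In the Cyp2c11 window the half-site stands on the reverse strand, as AGAACA with its first base 151 bases before the start, and TATAAA begins 31 bases before it. The Cyp2c23 window held no match to either, and neither window held TTCNNNGAA, the form bound by STAT factors. Of the 33469 rat windows of the same length, 17.5% held TGTTCT, 7.67% held TTCNNNGAA and 12.9% held TATAAA, so such matches are common. A match describes the letters and is no evidence of binding. The table held a window for 37 of the 49 P450 genes.

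Cyp2c23, the arachidonate epoxygenase best known from rat kidney, was not called with either hormone. Its probe set U04733_s_at had 3154 and 2752 in the ACTH right kidneys, 3037 and 3006 in the DEX right kidneys, and 2412, 3344, 2960.4 and 2849.8 in the saline right kidneys, with left kidneys from 2216 to 3132 with a median of 2789. The groups overlapped, and its effects were 0.05 ± 0.13 for ACTH and 0.02 ± 0.13 for DEX. The second probe set, rc_AI169372_g_at, had 1822 and 1127 in the ACTH right kidneys, 1453 and 1131 in the DEX right kidneys, and 1406, 1355, 1141 and 936 in the saline right kidneys. Its effects were 0.05 ± 0.17 for ACTH and 0.04 ± 0.17 for DEX, so both readings of the gene lay within their standard errors of 0. The remaining 9 Cyp2c probe sets, for Cyp2c6v1, Cyp2c7, Cyp2c12, Cyp2c13, Cyp2c22 and the third of Cyp2c23, were under the brightness filter.

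Cyp2e1, which oxidises ethanol, acetone and other small molecules, read high in the right kidney of ACTH rat 1 on all 3 of its probe sets. M20131cds_s_at had 3739.8 and 2667 in the ACTH right kidneys, 2457 and 2890.2 in the DEX right kidneys, and 2582, 2914, 3024 and 2816 in the saline right kidneys, with left kidneys from 2154 to 2819 with a median of 2421. Its right minus left changes were 0.61 and 0.19 in the ACTH rats, 0.13 and 0.04 in the DEX rats, and 0.10, 0.43, 0.31 and 0.09 in the saline rats. All 8 were above 0, with ACTH rat 1 and saline rat 4 the highest. S48325_s_at gave changes of 0.72 and 0.22 in the ACTH rats, 0.02 and 0.22 in the DEX rats, and 0.18, 0.46, 0.15 and 0.11 in the saline rats. AF056333_s_at gave 0.69 and 0.44 in the ACTH rats, 0.25 and 0.03 in the DEX rats, and 0.09, 0.73, 0.15 and −0.15 in the saline rats. On each probe set ACTH rat 1 and saline rat 4 had the largest increases, so the groups overlapped, and ACTH rat 5 lay below both. The ACTH effects were 0.16 ± 0.16, 0.25 ± 0.19 and 0.36 ± 0.23, and without rat 1 those of the first 2 turned to −0.047 and −0.0061. The DEX effects were −0.15 ± 0.16, −0.11 ± 0.19 and −0.07 ± 0.23, and none of the 3 was called in any comparison. M20131cds_s_at and S48325_s_at were the 2 of 46 P450 probe sets that were higher in the right kidney of all 8 rats, where 2.25% of all probe sets were.

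Among the Cyp4a omega-hydroxylases, which make 20-HETE and other hydroxy fatty acids, Cyp4a8 had effects above 0 with both hormones on both probe sets, none of them called. Its probe set rc_AA893011_at had 1288 and 857 in the ACTH right kidneys, 843 and 1157 in the DEX right kidneys, and 1006, 841, 733 and 927 in the saline right kidneys, with left kidneys from 689.8 to 953 with a median of 844. The changes were 0.49 and 0.26 in the ACTH rats, 0.28 and 0.28 in the DEX rats, and 0.22, −0.08, −0.17 and 0.20 in the saline rats, so all 4 hormone rats lay above all 4 saline rats. The effects were 0.34 ± 0.17 for ACTH (adjusted p = 0.569) and 0.24 ± 0.17 for DEX (adjusted p = 0.999). On the other probe set, M37828_at, the signal was 2232 and 1668 in the ACTH right kidneys, 1853 and 1765 in the DEX right kidneys, and 2183, 1996, 1466 and 1411 in the saline right kidneys. Its effects were 0.23 ± 0.15 for ACTH and 0.23 ± 0.15 for DEX, and saline rat 6 overlapped the ACTH rats with a change of 0.24. The ACTH and DEX effects share the 4 saline rats, so their likeness is not independent.

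Cyp4a1, the peroxisome proliferator-responsive member of the group, varied more between rats. M57718mRNA_s_at had 335 and 357 in the ACTH right kidneys, 359.5 and 401 in the DEX right kidneys, and 507, 429, 293 and 242 in the saline right kidneys, with left kidneys from 260.0 to 616 with a median of 304. Rat 2 was the highest on both sides, and the effects were 0.20 ± 0.20 for ACTH and 0.32 ± 0.20 for DEX. X07259cds_s_at had effects of 0.01 ± 0.19 for ACTH and 0.10 ± 0.19 for DEX, and rc_AA924267_s_at had −0.04 ± 0.19 for ACTH and 0.22 ± 0.19 for DEX. None was called. The probe set annotated to Cyp4a3 alone was under the filter, with a mean of 57.7. Of the 13 probe sets with several symbols, M33936_s_at lists Cyp4a3 beside Cyp4a2. It was tested, at a mean of 3654, and not called, so the level of Cyp4a3 is not settled.

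Cyp4b1, a fatty acid and arylamine hydroxylase of lung and kidney, had lower right minus left changes in both ACTH rats than in all saline rats. It had 82.5 and 113 in the ACTH right kidneys, 88.6 and 113 in the DEX right kidneys, and 115, 88.8, 149 and 115 in the saline right kidneys, with left kidneys from 98.5 to 144 with a median of 134. The changes were −0.57 and −0.31 in the ACTH rats, −0.33 and −0.21 in the DEX rats, and −0.27, −0.13, 0.12 and −0.25 in the saline rats. The ACTH effect was −0.31 ± 0.16 (adjusted p = 0.558) and the DEX effect −0.14 ± 0.16 (adjusted p = 0.999), neither called, and ACTH rat 5 and saline rat 2 were close together.

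Cyp4f1, Cyp4f5 and Cyp4f6, which hydroxylate leukotrienes and fatty acids, did not pass the test in any comparison. Cyp4f1 had 1106 and 723 in the ACTH right kidneys, 861 and 708 in the DEX right kidneys, and 1041, 832, 601 and 380.4 in the saline right kidneys, with left kidneys from 552 to 1063 with a median of 706. Saline rat 8 was far below the others, with a change of −0.84, and the effects of 0.33 ± 0.25 for ACTH and 0.33 ± 0.25 for DEX include it. Without rat 8 they were 0.093 and 0.0997. Cyp4f6 had 464 and 551 in the ACTH right kidneys, 393 and 497 in the DEX right kidneys, and 522, 393, 600.0 and 524 in the saline right kidneys, with effects of −0.14 ± 0.17 for ACTH and −0.23 ± 0.17 for DEX. Cyp4f5 had effects of −0.17 ± 0.14 for ACTH and −0.16 ± 0.14 for DEX. Its signal in left kidneys separated the clusters of rats.

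In the Cyp2d group, the rat relatives of the human debrisoquine hydroxylase, no probe set was called. Cyp2d2 had 2035 and 2378 in the ACTH right kidneys, 2008 and 2153 in the DEX right kidneys, and 2479.8, 2066, 2171 and 1444 in the saline right kidneys, with left kidneys from 1968 to 2381 with a median of 2071. The groups overlapped, with saline rat 8 lowest, and the effects were 0.13 ± 0.20 for ACTH and 0.14 ± 0.20 for DEX. Cyp2d4, by its probe set rc_AA997886_s_at, had 0.06 ± 0.19 for ACTH and −0.16 ± 0.19 for DEX. Cyp2d3 had −0.26 ± 0.21 for ACTH, which was 0.0081 without rat 5, and −0.04 ± 0.21 for DEX.

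Cyp2a, Cyp2b, Cyp2f and Cyp2g, which act mainly on drugs, odorants and steroids, had tested means of 61.2 to 157 and no calls. Cyp2a3, a lung and nasal form in rats, read 78.5 and 53.8 in the ACTH right kidneys, 65.9 and 72.4 in the DEX right kidneys, and 81.1, 89.0, 76.3 and 101 in the saline right kidneys. Its changes on this probe set, J02852_g_at, were −0.10 and −0.32 in the ACTH rats and −0.29 and −0.19 in the DEX rats. Saline rats had −0.08, 0.09, 0.00 and 0.17, so all hormone rats lay below them, with ACTH rat 1 close to saline rat 2. The effects were −0.26 ± 0.14 for ACTH (limma's adjusted p = 0.59) and −0.29 ± 0.14 for DEX (adjusted p = 0.999). The other Cyp2a3 probe set, J02852_at, was under the brightness filter at a mean of 23.3, and its groups overlapped. Cyp2a1, the testosterone 7-alpha-hydroxylase of rat liver, had 0.01 ± 0.19 for ACTH and −0.02 ± 0.19 for DEX. The 4 tested Cyp2b probe sets, for Cyp2b2, Cyp2b3 and Cyp2b15, had ACTH effects of −0.09 to 0.07 and DEX effects of −0.09 to 0.01. These Cyp2b genes are near copies of each other, and several of the probe sets carry the family suffix.

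The xenobiotic-inducible Cyp1 and Cyp3a groups were mostly under the filter, with 1 of 4, 1 of 4 and 1 of 7 probe sets of Cyp1a, Cyp1b and Cyp3a tested. Cyp1a1 had −0.02 ± 0.17 for ACTH and 0.06 ± 0.17 for DEX. Cyp1b1 had −0.23 ± 0.17 for ACTH and −0.08 ± 0.17 for DEX. Cyp3a23-3a1, the main glucocorticoid-inducible P450 of rat liver, read 78.3 and 73.0 in the ACTH right kidneys, 98.1 and 73.5 in the DEX right kidneys, and 79.3, 90.3, 93.7 and 87.9 in the saline right kidneys, with left kidneys from 72.3 to 123 with a median of 80.03. The groups overlapped, and the effects were 0.02 ± 0.19 for ACTH and 0.03 ± 0.19 for DEX. Its 3 other probe sets had means of 21.3, 54.8 and 56.0. A brighter probe set, X62086mRNA_s_at, lists Cyp3a2 beside Cyp3a23-3a1 and was tested, at a mean of 154. It had −0.12 ± 0.20 for ACTH and −0.23 ± 0.20 for DEX and was not called, so the level of Cyp3a2 is not settled.

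The kidney is the main site of vitamin D activation by Cyp27b1 and of its breakdown by Cyp24a1, and neither was called. Cyp24a1 was the most variable of these between rats. Its probe set L04619_s_at had 129 and 402 in the ACTH right kidneys, 206 and 277 in the DEX right kidneys, and 72.8, 135, 197 and 171 in the saline right kidneys, with left kidneys from 85.0 to 294 with a median of 164. The changes ran in both directions within the ACTH and saline groups, at −0.53 and 0.43 in the ACTH rats, 0.73 and 0.22 in the DEX rats, and −0.23, 0.58, −0.32 and 0.31 in the saline rats. The second probe set, Z28351exon_s_at, had changes of −0.07 and 0.30 in the ACTH rats, 0.07 and 0.05 in the DEX rats, and −0.0026, −0.02, −0.71 and 0.59 in the saline rats. The effects of the first were −0.14 ± 0.30 for ACTH and 0.39 ± 0.30 for DEX, and those of the second 0.15 ± 0.27 for ACTH and 0.09 ± 0.27 for DEX. Cyp27b1, dim at a mean of 71.3, had 61.9 and 71.0 in the ACTH right kidneys, 56.0 and 66.7 in the DEX right kidneys, and 64.6, 56.0, 74.3 and 64.1 in the saline right kidneys, with left kidneys from 60.3 to 87.7 with a median of 80.04. It was lower in the right kidney of all 8 rats, as were 2 of the Cyp2c11 probe sets, so 3 of 46 P450 probe sets had this order, where 1.03% of all probe sets did. Its hormone effects were −0.06 ± 0.15 for ACTH and −0.14 ± 0.15 for DEX.

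Cyp51, the lanosterol demethylase of cholesterol synthesis, had DEX effects above 0 on all 4 tested probe sets, none of them called. U17697_s_at had 110.3 and 102 in the ACTH right kidneys, 113 and 149 in the DEX right kidneys, and 73.8, 99.1, 104 and 98.7 in the saline right kidneys, with left kidneys from 75.8 to 139.8 with a median of 105. Both DEX rats lay above all saline rats, and the DEX effect was 0.43 ± 0.17 (unadjusted p = 0.028, adjusted p = 0.999). It was the P450 probe set that passed the unadjusted threshold for DEX. The DEX effects of the other 3 were 0.15 ± 0.17, 0.24 ± 0.18 and 0.13 ± 0.18, with rats overlapping, and the 4 ACTH effects ran from −0.06 to 0.11. Probe sets of 1 gene read the same RNA and are no replicates.

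Cyp27a1, the mitochondrial sterol 27-hydroxylase of bile acid synthesis, had effects of 0.09 ± 0.16 for ACTH and −0.16 ± 0.16 for DEX on Y07534cds_s_at. On M38566mRNA_s_at it had 0.20 ± 0.19 for ACTH, which was −0.11 without rat 5, and −0.02 ± 0.19 for DEX. Cyp7a1, the rate-limiting enzyme of bile acid synthesis in liver, had 0.05 ± 0.17 for ACTH and −0.10 ± 0.17 for DEX at a mean signal of 68.2. Cyp26b1, which breaks down retinoic acid, had −0.03 ± 0.13 for ACTH and 0.07 ± 0.13 for DEX.

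The steroid-synthesis P450s, which ACTH controls in the adrenal cortex, had means of 118 or less where tested and were not called. Cyp11a1, the cholesterol side-chain cleavage enzyme, had 87.2 and 94.9 in the ACTH right kidneys, 76.9 and 107 in the DEX right kidneys, and 83.7, 84.9, 119 and 113 in the saline right kidneys, with left kidneys from 84.6 to 119 with a median of 103. Its effects were −0.08 ± 0.17 for ACTH and −0.15 ± 0.17 for DEX. Cyp17a1, the 17-alpha-hydroxylase, had −0.03 ± 0.18 for ACTH and 0.05 ± 0.18 for DEX at a mean of 83.9, and Cyp21a1, the 21-hydroxylase, had 0.10 ± 0.18 for ACTH and 0.06 ± 0.18 for DEX at a mean of 118. The probe sets annotated to aldosterone synthase Cyp11b2 alone and to aromatase Cyp19a1 were under the filter, with means of 40.5 and 35.8. D00568_s_at lists Cyp11b1 beside Cyp11b2 and was tested, at a mean of 74.8. It had 0.01 ± 0.18 for ACTH and −0.04 ± 0.18 for DEX and was not called, so the level of Cyp11b2 is not settled. The adrenal marker Star was under the filter on both of its probe sets, with means of 30.5 and 36.6. Of the 6 adrenal genes other than P450s 3 were on the array, and the other two were tested and not called: Nr5a1, a transcription factor of steroidogenic cells, at a mean of 66.0, and Scarb1, the HDL receptor, which other tissues express too, at 109, 162 and 494 on its 3 probe sets.

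Genes that serve the P450s were listed in 4 groups of 36 genes, of which 28 were on the array and 27 tested. For ACTH 1 of the 27 genes was called, lower, where 0.496% of all probe sets were called. For DEX 0 were called (0% of all), and for ACTH against DEX 1 was, lower (0.572% of all). That gene was Prlr, the prolactin receptor, which like the growth hormone receptor signals through STAT5. On its probe set L48060_s_at the right minus left changes were −1.33 and −1.39 in the ACTH rats, −0.35 and −0.36 in the DEX rats, and −0.0047, 0.11, −0.13 and −0.14 in the saline rats. The ACTH rats stood apart from the other 6, with an ACTH effect of −1.32 ± 0.15 (adjusted p = 0.0047) and an ACTH minus DEX difference of −1.003 ± 0.17 (adjusted p = 0.0325). A second one, M19304_at, was called for ACTH at −1.33 ± 0.19 (adjusted p = 0.00958) and not for ACTH minus DEX (adjusted p = 0.11). The other two tested Prlr probe sets were not called. M34083_at had −0.50 ± 0.18 for ACTH (adjusted p = 0.374) and 0.25 ± 0.18 for DEX, and M74152_s_at had −1.08 ± 0.27 for ACTH (adjusted p = 0.106) and 0.35 ± 0.27 for DEX. The DEX effects of the called L48060_s_at and M19304_at were below 0, at −0.31 ± 0.15 and −0.43 ± 0.19, so the probe sets of the gene differed in the sign of the DEX effect.

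Of the electron donors, 5 of 6 genes were tested and 0 were called. P450 reductase, Por, had ACTH effects of −0.20 to 0.04 and DEX effects of 0.09 to 0.24 over its 3 probe sets. Cytochrome b5 (Cyb5a, Cyb5b), its reductase Cyb5r3 and the mitochondrial ferredoxin Fdx1 were not called. For haem, 4 of 7 genes were tested and 0 were called. Alas1, the rate-limiting enzyme of haem synthesis, had ACTH effects of 0.67 ± 0.27 and 0.74 ± 0.28 and DEX effects of 0.62 ± 0.27 and 0.68 ± 0.28 on its 2 probe sets, with adjusted p-values of 0.445 and 0.408 for ACTH and 0.999 for both for DEX. Hmox1, which breaks haem down, had ACTH effects of −1.97 ± 0.62 and −2.12 ± 0.73, with adjusted p-values of 0.269 and 0.331. Only ACTH rat 1 had right minus left changes far below 0, at −3.28 and −3.55, whereas ACTH rat 5 had 0.14 and 0.20. The summed signal of the 4 tested haem genes was 1239 to 1412 in the ACTH right kidneys. It was 1071 to 1296 in the DEX and 1105 to 1373 in the saline right kidneys. Left kidneys had 941 to 3710. The ACTH right kidneys were thus not low in this sum, and the highest sum was in a left kidney. The mean of these genes on the log2 scale was 8.3267 to 8.3318 in the ACTH right kidneys. It was at most 8.1854 in the DEX and 8.239 in the saline right kidneys. Its right minus left change in rat 1 was −0.7041, and left kidneys ran from 7.8459 to 9.0308. The left kidney of rat 1 was thus the highest in this mean, and its right kidney was not low. The Hmox1 signal of each kidney was not tested by itself. Of the regulators, 17 of 21 genes were on the array, and Ahr, Hnf4a, Vdr, Ghr, Stat5a, Stat5b and Nr3c1 were not called. The probe sets of Ghr, the growth hormone receptor, differed. Z83757mRNA_at had −0.52 ± 0.25 for ACTH, 0.56 ± 0.25 for DEX and −1.08 ± 0.29 for ACTH minus DEX (limma's adjusted p = 0.14). S49003_s_at had 0.16 ± 0.17, −0.01 ± 0.17 and 0.17 ± 0.19 in the same order. The epoxide hydrolases Ephx1 and Ephx2, which act next on arachidonate epoxides, were not called, and Ephx1 had an ACTH effect of −0.39 ± 0.18.

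**Figure D4:**
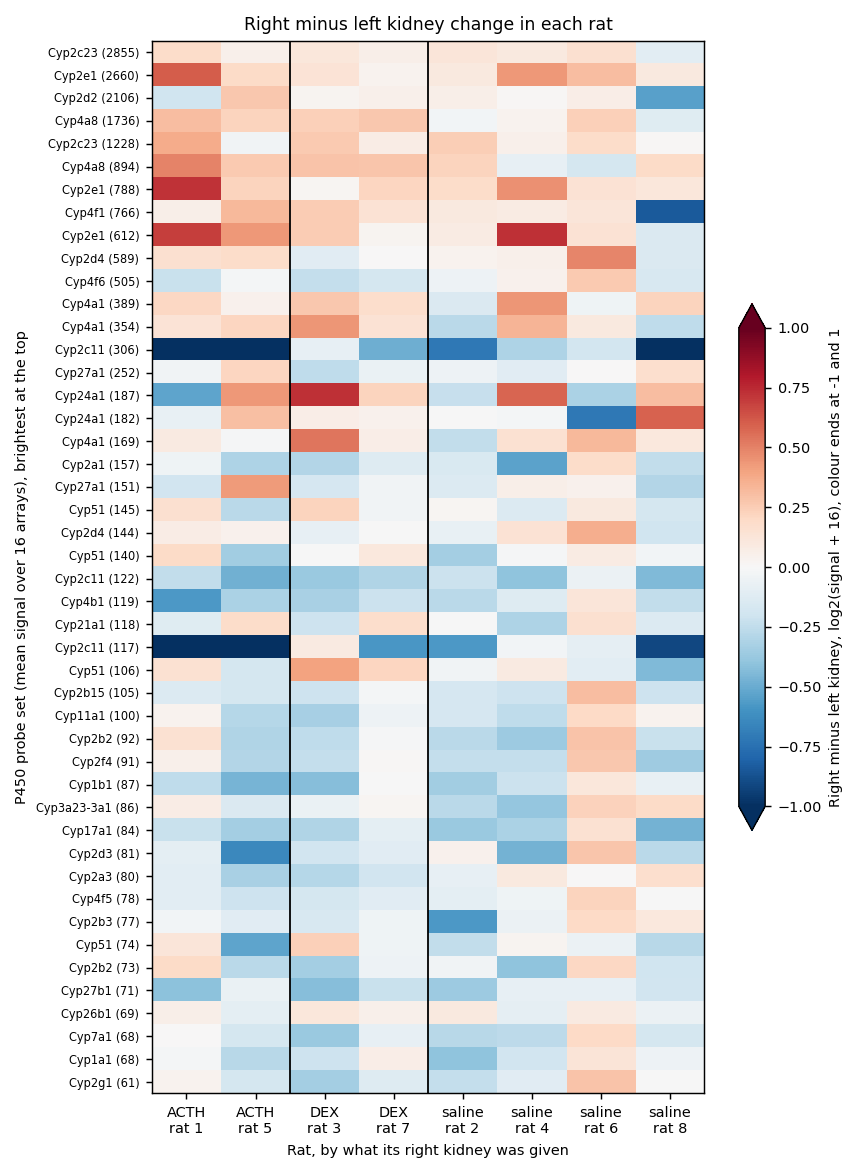
Right minus left kidney change, log2(signal + 16), of the 46 tested P450 probe sets (lines, ordered by their mean signal over 16 arrays, given in brackets) in each of the 8 rats (columns, by what the right kidney was given). Colours end at −1 and 1. Changes below 0 (blue) fill much of the lower part in most rats and changes above 0 (red) the upper part, and saline rat 6 is red in most of the lower part.

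Within single rats, dim and bright P450 probe sets had different median changes. Over the 17 tested members with a mean of 100 or less, the median right minus left change was 0.01 and −0.27 in the ACTH rats, −0.25 and −0.05 in the DEX rats, and −0.25, −0.21, 0.20 and −0.07 in the saline rats. Over all 1469 tested probe sets as dim, those medians lay between −0.07 and 0.04. Over the 11 members above 500, the medians were 0.31 and 0.22 in the ACTH rats, 0.13 and 0.06 in the DEX rats, and 0.09, 0.05, 0.16 and −0.12 in the saline rats. For all 953 probe sets above 500 they lay between −0.03 and 0.17. The ACTH rats had the 2 highest medians of the bright members, with saline rat 6 next at 0.16. All 953 had −0.002 and 0.13 in the ACTH rats. The 11 bright members stand for 7 genes, and 3 of them are of Cyp2e1, so they are not independent readings. The median of the dim members was thus below 0 in 6 of 8 rats and above 0 in ACTH rat 1 and saline rat 6, and the treatments overlapped.

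Saline kidneys give the background of the right minus left comparison. Between right and left kidneys of the saline rats, 0 of 46 P450 probe sets and 0% of all were called. At an unadjusted p under 0.05 there were 5, against 3.74% of all: 3 for Cyp2c11, 1 for Cyp17a1 and 1 for Cyp2e1. The right minus left value of Cyp2c11 J02657_s_at in saline rats was −0.65 ± 0.17 (adjusted p = 0.897), so this gene also read lower on the saline side, by less than in the ACTH rats. The median over the 46 was −0.06, where that of all tested probe sets was 0.01, and 17 of the 46 were above 0.

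The clusters of rats also differed in their untreated left kidneys. For 12 of 46 P450 probe sets, 7 higher and 5 lower in rats 5 to 8, the left kidneys of rats 5 to 8 and of rats 1 to 4 did not overlap, where 35.8% of all tested probe sets had no overlap. Cyp4f5 averaged 101 ± 9.38 in rats 5 to 8 and 59.7 ± 6.71 in rats 1 to 4 (SD, n = 4 each). Cyp51 was higher in rats 5 to 8 on 3 of its probe sets, at 124 ± 12.0 against 86.7 ± 9.95 for U17697_s_at. Cyp26b1, Cyp2g1 and the X79081mRNA_f_at probe set of Cyp2c11 were also higher there. Cyp4a8 was lower in rats 5 to 8 on M37828_at, at 1416 ± 126 against 1883 ± 275. Its other probe set, rc_AA893011_at, overlapped, at 826 ± 98.7 against 838 ± 101. Cyp4f1 was lower in rats 5 to 8, at 614 ± 64.02 against 885 ± 160.2. Cyp2a1, Cyp2c23 on rc_AI169372_g_at and Cyp27a1 on Y07534cds_s_at were the other members lower there. The labels do not say what sets these rats apart, and each cluster holds every treatment.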

How the data were processed

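RNA from 16 rat kidneys was measured on single-colour arrays. Per the labels, total RNA from Tri-Reagent and RNeasy columns was made into biotinylated cRNA. The values as deposited are linear signal intensities. How the authors computed and normalized them is not given in the sources used here. Array medians spanned 0.117 on a log2 scale, under the limit of 0.5 for rescaling. After 59 control probe sets, the 40% dimmest (3496) were left out, and 5244 were fitted as log2(value + 16) with limma 3.58.1 (R 4.3.3), with terms for each rat, the right kidney and each hormone and an intensity trend (5 residual and 7.34 prior degrees of freedom). Tests were two-sided, with Benjamini-Hochberg adjustment over all tested probe sets. Rat pairs the kidneys (same-rat deviations correlated at 0.62 to 0.76). All 49 P450 gene symbols were unchanged in RefSeq. Full values are given for called probe sets, the 5 largest effects in each hormone comparison and a fixed list of genes. Probe sets with several symbols are assigned to no gene. The fit was tested on simulated data. Alternatives covered the pseudocount, filter, normalization, rat block, right kidneys only, rat clusters, fat markers, trend and each rat. The members and lists were chosen with earlier results of these data known.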

Additional observations from a re-analysis of the deposited data

Results flagged for a closer look

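The results below stood out by rules set for all named probe sets. The ACTH effect minus the DEX effect of Cyp2c11 J02657_s_at, −1.84 ± 0.35 on the log2(signal + 16) scale with limma's adjusted p of 0.0408, is a tested difference between the hormones. Cyp2e1 S48325_s_at had 922.6 in the saline right kidney of rat 8, where the other 3 saline right kidneys had 800.3 to 813. Cyp4a1 M57718mRNA_s_at had 616.4 in the left kidney of rat 2, where the other left kidneys had 260 to 360.8. Cyp27b1 AF000139_s_at had 60.29 in the left kidney of rat 4, where the others had 75.15 to 87.65. These 3 samples lay far from the rest of their group by Dixon's test, which was run on 70 groups and by chance marks about 1 in 20.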

How the results depend on the processing

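Of the P450 probe sets, the ACTH effect gave 0 calls, or 1 with the lowest 60% left out and without rat 5 or 8 (0 to 1 over the rats left out). ACTH minus DEX gave 1, or 0 with a pseudocount of 64, quantile normalization, no replicate block, right kidneys only and the fat marker covariate (0 to 1 over the rats left out, with 0 without rats 1, 2, 3, 4 and 7). Among all probe sets, the ACTH effect gave 12 calls with quantile normalization, 0 with no replicate block, right kidneys only or the fat marker covariate, and 9 to 114 over the rats left out. ACTH minus DEX gave 74 with a term for right kidneys of rats 5 to 8, 0 with no replicate block, right kidneys only or the fat marker covariate, and 2 to 100 over the rats left out. DEX gave 0 to 3 over the rats left out. Right over left in saline rats gave 1 with pseudocount 1, no filter, the lowest 60% left out, quantile normalization or no trend, 4 with the fat marker covariate, and 0 to 1 over the rats left out. Among single probe sets, none of them called, the DEX effect of Cyp2c11 J02657_s_at turned to −0.59 with right kidneys only and −0.22 with the fat marker covariate, and Cyp4a1 rc_AA924267_s_at turned to 0.19 for ACTH minus DEX with that covariate. Over the rats left out, the ACTH effect ran from −0.11 to 0.51 for Cyp27a1 M38566mRNA_s_at, −0.54 to 0.0081 for Cyp2d3 AB008424_s_at, −0.047 to 0.37 for Cyp2e1 M20131cds_s_at and −0.0061 to 0.50 for Cyp2e1 S48325_s_at. The DEX effect of Cyp4a1 rc_AA924267_s_at ran from −0.018 to 0.45, and ACTH minus DEX from −0.091 to 0.53 for Cyp27a1 M38566mRNA_s_at and −0.62 to 0.021 for Cyp51 rc_AA963449_s_at. The cause of these turns was not tested, beyond the fewer rats of each such fit. With 2 rats per hormone, a fit without an ACTH or DEX rat assumes that the remaining one varies like the others. Values for dim probe sets have no measured background, so a low signal there does not show that a gene was expressed.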
